A study of Neurospora crassa with 12 samples.

Results

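The 100 most abundant transcripts of the filamentous fungus Neurospora crassa were followed through sulfur starvation, in wild-type cells and in a mutant of cys-3. Members were chosen by the measured level: they are the 100 genes with the highest mean FPKM over 12 RNA-seq libraries, out of 9758 genes in the tables, and all 100 passed the minimum level for testing. The 4 genes with a failed status in any library and 5 genes set aside by locus tag were left out before ranking, and 1 gene with a failed status in 1 library, NCU05032, would otherwise have held rank 34 with a mean of 1960 FPKM. FPKM counts the sequenced fragments of a gene relative to its transcript length and to all mapped fragments, so that levels can be compared between genes and are relative to the rest of the library.

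The 4 groups held 3 independent cultures each. They were cys-3 mutant mycelium exposed to medium lacking sulfur for 4 h, wild-type mycelium exposed to medium lacking sulfur for 4 h, cys-3 mutant mycelium exposed to 24 μM sulfate for 4 h and wild-type mycelium exposed to 24 μM sulfate for 4 h. Wild type was FGSC 4200, mating type a. The mutant, delta cys-3, also mating type a, is 1 homokaryotic isolate in which a hygromycin resistance cassette replaces part of the 5′ UTR, the first exon and part of the intron. All cultures shared 24 h of growth, per the labels in Vogel's medium with methionine at 500 mg per liter, at 25°C in constant light with shaking. Conidiation markers (con-6, con-8, con-10, con-13, fl and acon-3), which mark asexual spore formation, were low in every library: their summed level was 27.2 to 28.5, 17.6 to 22.2, 25.3 to 31.9 and 16.1 to 23.9 FPKM in starved mutant, starved wild-type, 24 μM mutant and 24 μM wild-type cells, with con-10 at 0 in 1 library and con-13 at 0 in 2. Library totals ran from 561602 to 584215 FPKM, and the deposited confidence intervals implied between 7.33 and 11.2 megareads. The part of cys-3 downstream of the cassette is still transcribed, so its presence alone does not check the labels. Its level was 71.1 to 73.7 FPKM in starved mutant cells, against 132 to 162 FPKM in starved wild-type cells. With 24 μM sulfate it was 74.9 to 79.7 FPKM in mutant cells, against 58.7 to 66.6 FPKM in wild-type cells.

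In a growing hypha much of the messenger RNA comes from few genes. Ribosomal proteins and elongation factors make protein, glycolytic enzymes split glucose into pyruvate, and the mitochondrial ATP synthase and ADP/ATP carrier make and export ATP. CYS-3 is a bZIP transcription factor that activates genes for the uptake and assimilation of sulfur when preferred sulfur sources run short. The sulfur starvation comparison asks which transcripts change with sulfur supply, and the strain comparison asks which of these levels differ when CYS-3 is missing.

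Members ranged in mean level from 14515 FPKM for gpd-1 at rank 1 to 1022 FPKM for NCU06432 at rank 100, a ratio of 14.2, with a median of 1586 FPKM. Only 8 members had a mean of at least 5000 FPKM, 14 at least 3000 FPKM and 31 at least 2000 FPKM. The 3 members just inside the limit were emp-6 at 1071 FPKM, por at 1065 FPKM and NCU06432 at 1022 FPKM. Just outside it were NCU00995 at 1005 FPKM, NCU08502 at 1002 FPKM and NCU07562 at 988 FPKM. These means chose the members and are given as a description. Ranked in each group alone, 91 of the 100 were among the 100 highest in all 4 groups, and in starved mutant cells alone 93 were.

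**Figure D1:**
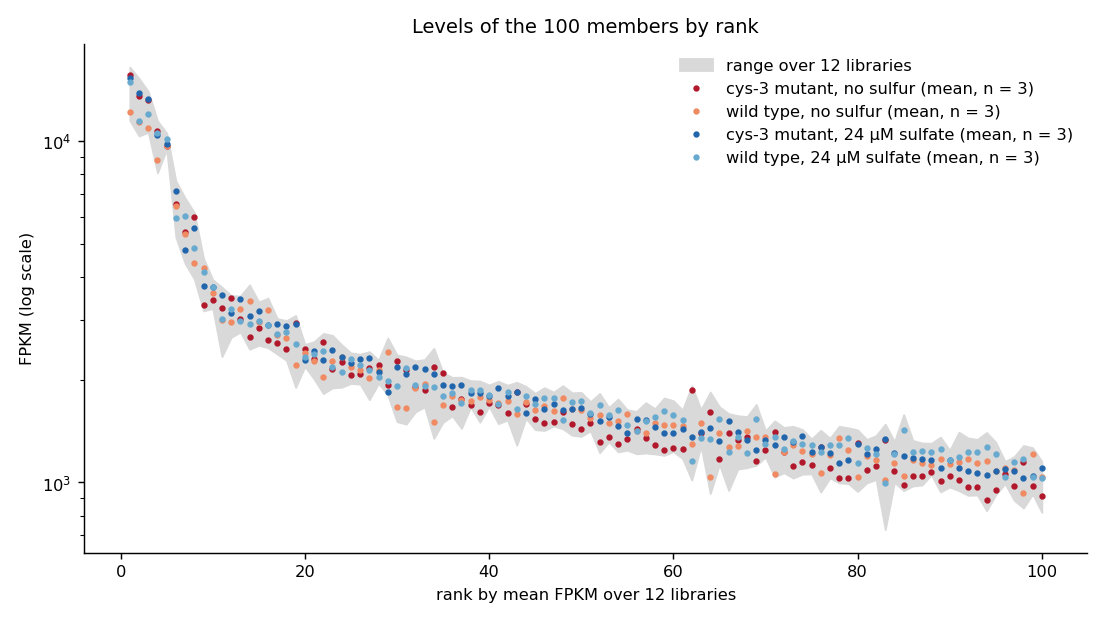
FPKM (y axis, log scale) of the 100 members against their rank by mean FPKM over 12 libraries (x axis). Points are the means of the 4 groups (n = 3 each) and the grey band is the range over all 12 libraries. The curve drops from 14515 FPKM at rank 1 to 3628 FPKM at rank 10 and flattens to 1022 FPKM at rank 100, and the group means stay close to each other along it.

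RefSeq gave a symbol to 40 of the members and a locus tag alone to 60. By symbol, 8 members encode cytosolic ribosomal proteins, 7 belong to glycolysis and fermentation and 6 to the clock-controlled and cell wall genes. Translation factors, mitochondrial energy genes, chaperones and histones have 3 each, and the cytoskeleton list has 1. gpd-1 is counted in both the glycolysis and the clock-controlled list. None carried a symbol from the lists for sulfur and methionine metabolism, redox proteins or ubiquitin and the proteasome. Members without a symbol were not sorted by product name, so each list may be incomplete. Chromosome I held 26 of the members, V 19, II 17, III 15, VII 11, VI 6 and IV 5, and none lay on the mitochondrial contig. The members' loci had a median length of 1901 bp, against 2127 bp for all matched genes. Another locus overlapped 35 members, against 23.0% of all genes, and since the libraries do not mark strand, reads from such overlaps cannot be told apart. Among members described below this applies to NCU06110, cmt, hex-1, ace-8, pgk, po, NCU04314, cpc-2, NCU06402, NCU03150, NCU07829 and NCU06432.

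The 10 most abundant transcripts were led by gpd-1 (also ccg-7), glyceraldehyde-3-phosphate dehydrogenase of glycolysis, at chromosome II, 3180104 to 3182245 (NC12). Its level was 15171, 15514 and 16191 FPKM in starved mutant cells, 13074, 12068 and 11494 FPKM in starved wild-type cells, 14727, 16487 and 14639.9 FPKM in 24 μM mutant cells, and 14656, 15966 and 14192 FPKM in 24 μM wild-type cells. It was the most abundant transcript in 11 libraries, and all 3 starved wild-type cultures were below the 9 others. Rank 2, nmt-1 (NCU09345, chromosome II, 4177546 to 4180504), acts in thiamine synthesis. It averaged 13601 ± 503, 11364 ± 876, 13800.2 ± 1328 and 11480.4 ± 1307 FPKM (SD, n = 3 each) in starved mutant, starved wild-type, 24 μM mutant and 24 μM wild-type cells, and was the most abundant transcript in the remaining library. Rank 3, NCU06110, annotated as a thiazole biosynthetic enzyme, also of thiamine synthesis, averaged 13166 ± 537, 10924 ± 331, 13274 ± 724 and 11982 ± 145 FPKM in the same order of groups.

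Among ranks 4 to 10, the enolase emp-7 had a mean of 10144 FPKM over all libraries, and tef-1, translation elongation factor 1 alpha, had 9838 FPKM. The group means of tef-1 lay closer together than those of any other member, at 9665 ± 137 FPKM in starved mutant, 9699.6 ± 195 FPKM in starved wild-type, 9831 ± 82.8 FPKM in 24 μM mutant and 10156 ± 448 FPKM in 24 μM wild-type cells. They were followed by NCU16635 at 6526 FPKM, the pyruvate decarboxylase cfp at 5406 FPKM, the copper metallothionein cmt at 5203 FPKM, the mitochondrial ADP/ATP carrier aac at 3867 FPKM and NCU08389 at 3628 FPKM. cmt encodes a small, cysteine-rich protein that binds copper.

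Together the 100 members held about 40% of each library's FPKM total. The share was 40.4%, 40.9% and 40.4% in starved mutant cells (mean 40.6% ± 0.318), 40.8%, 38.0% and 38.5% in starved wild-type cells (39.1% ± 1.49), 42.1%, 41.2% and 41.4% in 24 μM mutant cells (41.6% ± 0.494), and 41.1%, 41.2% and 41.8% in 24 μM wild-type cells (41.4% ± 0.359; SD, n = 3 each). In both strains every starved culture was below every 24 μM culture of that strain, and the strains overlapped in either medium. Starved wild-type replicate 1, at 40.8%, lay near the 24 μM wild-type cultures, and replicates 2 and 3 below it. A share is relative, and fewer cells of a type cannot be told apart from less RNA per cell.

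By rank, the groups were ordered in another way at the top of the ranking than below it. Ranks 1 to 10 held 14.999%, 15.30% and 15.65% in starved mutant cells, 13.95%, 13.44% and 12.97% in starved wild-type cells, 14.59%, 15.79% and 14.93% in 24 μM mutant cells, and 14.64%, 14.95% and 14.62% in 24 μM wild-type cells. All 3 starved wild-type cultures were below the other 9. Ranks 11 to 100 held 25.3% ± 0.490 in starved mutant, 25.6% ± 1.15 in starved wild-type, 26.5% ± 1.08 in 24 μM mutant and 26.6% ± 0.461 in 24 μM wild-type cells, and here both starved means were lower, with overlapping cultures. The next 100 genes held 11.6% to 12.3% of every library. Counted from the most abundant gene down, 50% of the FPKM total was reached with 160 to 164 genes in starved mutant, 159 to 182 in starved wild-type, 149 to 157 in 24 μM mutant and 151 to 157 in 24 μM wild-type cells.

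**Figure D2:**
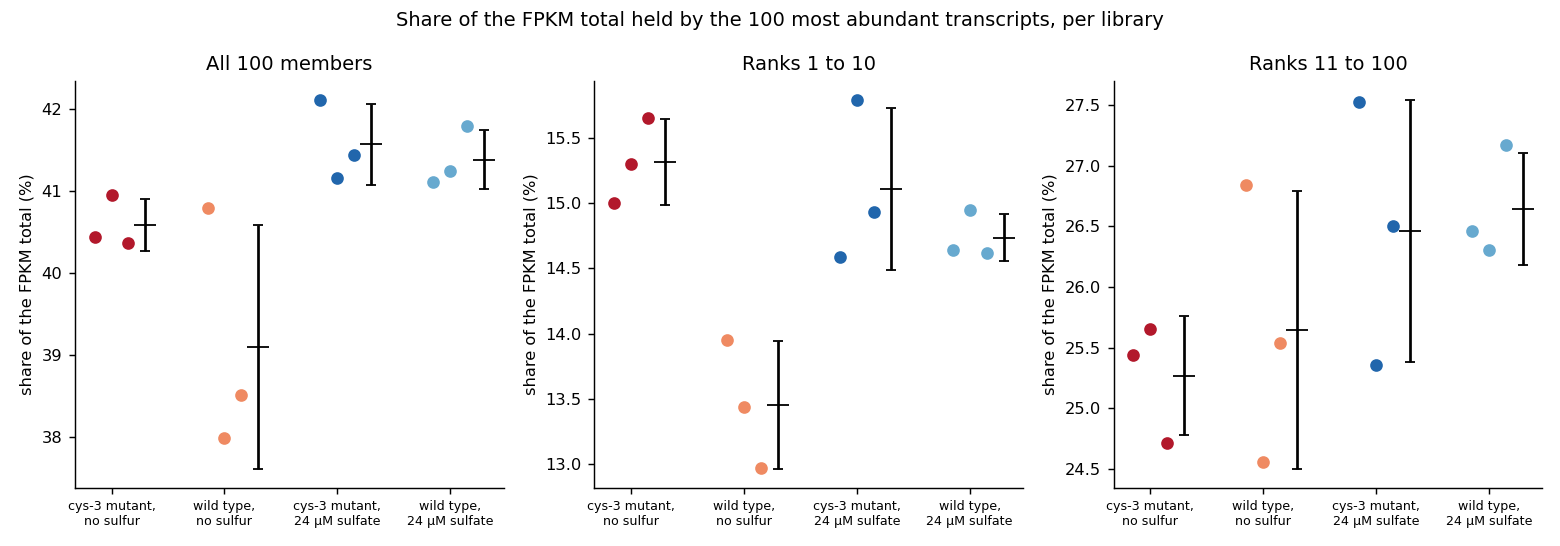
Share of each library's FPKM total (y axes in percent, not starting at 0) held by all 100 members, by ranks 1 to 10 and by ranks 11 to 100, in the 4 groups. Points are single libraries and the bars beside them are mean and SD (n = 3). Starved wild-type cells have the lowest shares of ranks 1 to 10, 12.97% to 13.95%, while ranks 11 to 100 are lower in starved cells of both strains with overlap.

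Within the members, glycolysis and fermentation took 7.20% ± 0.386 of the FPKM total in starved mutant cells, 5.93% ± 0.4998 in starved wild-type cells, 6.73% ± 0.405 in 24 μM mutant cells and 7.12% ± 0.196 in 24 μM wild-type cells. The 8 ribosomal proteins known by symbol took 2.01% ± 0.0884, 2.23% ± 0.0867, 2.25% ± 0.163 and 2.35% ± 0.150 in the same order, and the mitochondrial energy genes 1.27% ± 0.0348, 1.58% ± 0.0639, 1.39% ± 0.146 and 1.49% ± 0.105. nmt-1 and NCU06110 together took 4.69% ± 0.174 in starved mutant and 3.89% ± 0.135 in starved wild-type cells, against 4.67% ± 0.372 in 24 μM mutant and 4.12% ± 0.185 in 24 μM wild-type cells. The 60 members without a symbol took between 17.8% and 20.9% of each library.

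The levels of single members differed by less than 2-fold between groups. The median absolute log2 fold change of members was 0.0877 for starvation in wild type, against 0.147 over all tested genes. Between the strains it was 0.143, against 0.199, in starvation and 0.0971, against 0.110, with 24 μM sulfate. For starvation in the mutant it was higher than over all tested genes, 0.140 against 0.104. The ratio of the highest to the lowest group mean had a median of 1.18 over the members and ran from 1.05 to 1.61, with 70 members under 1.25 and 2 at 1.5 or above, NCU16673 and NCU04314. Spread within groups was of similar size to that of other genes: the coefficient of variation had a median of 6.88% over members and groups, against 7.16% over all tested genes. The lowest of the 4 group means was that of starved mutant cells for 60 members, starved wild-type cells for 24, 24 μM wild-type cells for 12 and 24 μM mutant cells for 4. Neither these counts nor those of the ratios were made over all tested genes.

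In wild-type cells, 5 of the 8 members that fell in sulfur starvation were glycolytic enzymes. Of the 100 members, 2 rose and 8 fell (limma, Benjamini-Hochberg adjusted p under 0.05), against 23.0% of all 5035 tested genes in either direction, 11.1% higher and 12.0% lower. None passed a 2-fold limit, which 3.18% of tested genes did. The median log2 fold change was −0.07 over the members and −0.04 over all tested genes, and the lowest and highest ratios of group means were 0.734 and 1.21. Starved and 24 μM cultures did not overlap for 2 members that were higher, against 15.7% of tested genes, and for 10 that were lower, against 18.1%.

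Of the 7 members of glycolysis and fermentation, 5 fell and 2 did not pass. gpd-1, with the levels given above, fell by 0.29 on the log2 scale (SE 0.07, adjusted p = 0.0104 from limma). pgk, phosphoglycerate kinase, which makes ATP in the step after gpd-1, had 1725, 1752 and 1482 FPKM in starved wild-type cells, against 2333, 2147 and 2005 FPKM in 24 μM wild-type cells, without overlap. It had the strongest decrease of the list, with a log2 fold change of −0.39 ± 0.09 (SE, adjusted p = 0.00984, limma). emp-6, named for the Embden-Meyerhof pathway, had 950.4, 1003 and 841 FPKM in starved cells, against 1283, 1118 and 1121 FPKM in 24 μM cells (log2 fold change −0.33 ± 0.08, adjusted p = 0.0114, limma). The starved cultures were again all below the others. emp-7 averaged 8809 ± 657 FPKM in starved cells, against 10597 ± 240 FPKM in 24 μM cells (−0.27 ± 0.07, adjusted p = 0.0221, limma), and ace-8, pyruvate kinase, averaged 2043 ± 204 FPKM, against 2421 ± 54.2 FPKM (−0.25 ± 0.07, adjusted p = 0.0292, limma). The aldolase fba (−0.13, adjusted p = 0.179) and cfp (−0.19, adjusted p = 0.299) did not pass. The list held 9 tested genes in all, and of the further 2, emp-3 fell (−0.32, adjusted p = 0.0302) and emp-1 did not pass (−0.04, adjusted p = 0.772).

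Outside glycolysis, hsp70-2, named for the HSP70 family of chaperones, had 1105, 962 and 1069 FPKM in starved wild-type cells, against 1545, 1150.2 and 1581 FPKM in 24 μM wild-type cells (log2 fold change −0.43 ± 0.13, adjusted p = 0.0312, limma). Replicate 2 of the 24 μM cells was close to the starved cultures. NCU05404 had 1083, 1037 and 1055 FPKM in starved cells, against 1483, 1342 and 1249 FPKM in 24 μM cells (−0.36 ± 0.08, adjusted p = 0.00874, limma). NCU04314, annotated as a hypothetical protein, had 1163, 928 and 1014 FPKM, against 1412, 1358 and 1257 FPKM (−0.38 ± 0.11, adjusted p = 0.0306, limma). Neither had overlapping cultures.

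The 2 members that rose in starved wild-type cells were acw-9 and por. acw-9, an anchored cell wall protein, had 2186, 2648 and 2409 FPKM in starved cells, against 1944, 1914 and 2106 FPKM in 24 μM cells (log2 fold change 0.28 ± 0.07, adjusted p = 0.0181, limma). por, the porin of the mitochondrial outer membrane, had 1265, 1147 and 1221 FPKM, against 967, 1077 and 1062 FPKM (0.23 ± 0.07, adjusted p = 0.0347, limma). Leaving out 1 library at a time, 2 of the 10 calls always held, those of pgk (highest adjusted p 0.0485) and NCU05404 (0.0443), while gpd-1 lost its call only without starved replicate 3 (0.0545), and the count was 3 without 24 μM wild-type replicate 1 and 2 without starved wild-type replicate 3. The highest adjusted p values were 0.120 for hsp70-2, 0.107 for NCU04314, 0.0572 for emp-6, 0.0663 for acw-9 and 0.142 for por without 24 μM wild-type replicate 1, and 0.102 for emp-7 and 0.127 for ace-8 without starved wild-type replicate 3. Under quantile normalization, which gives every library the same value at each rank, gpd-1 (−0.06, adjusted p = 0.364), emp-7 (−0.15, adjusted p = 0.135) and acw-9 (0.25, adjusted p = 0.0804) did not pass. Since gpd-1 was the most abundant gene in 11 libraries, that setting gave it nearly the same value everywhere and could not test its change. emp-7, also near the top, could move only as far as its rank in a library changed.

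**Figure D3:**
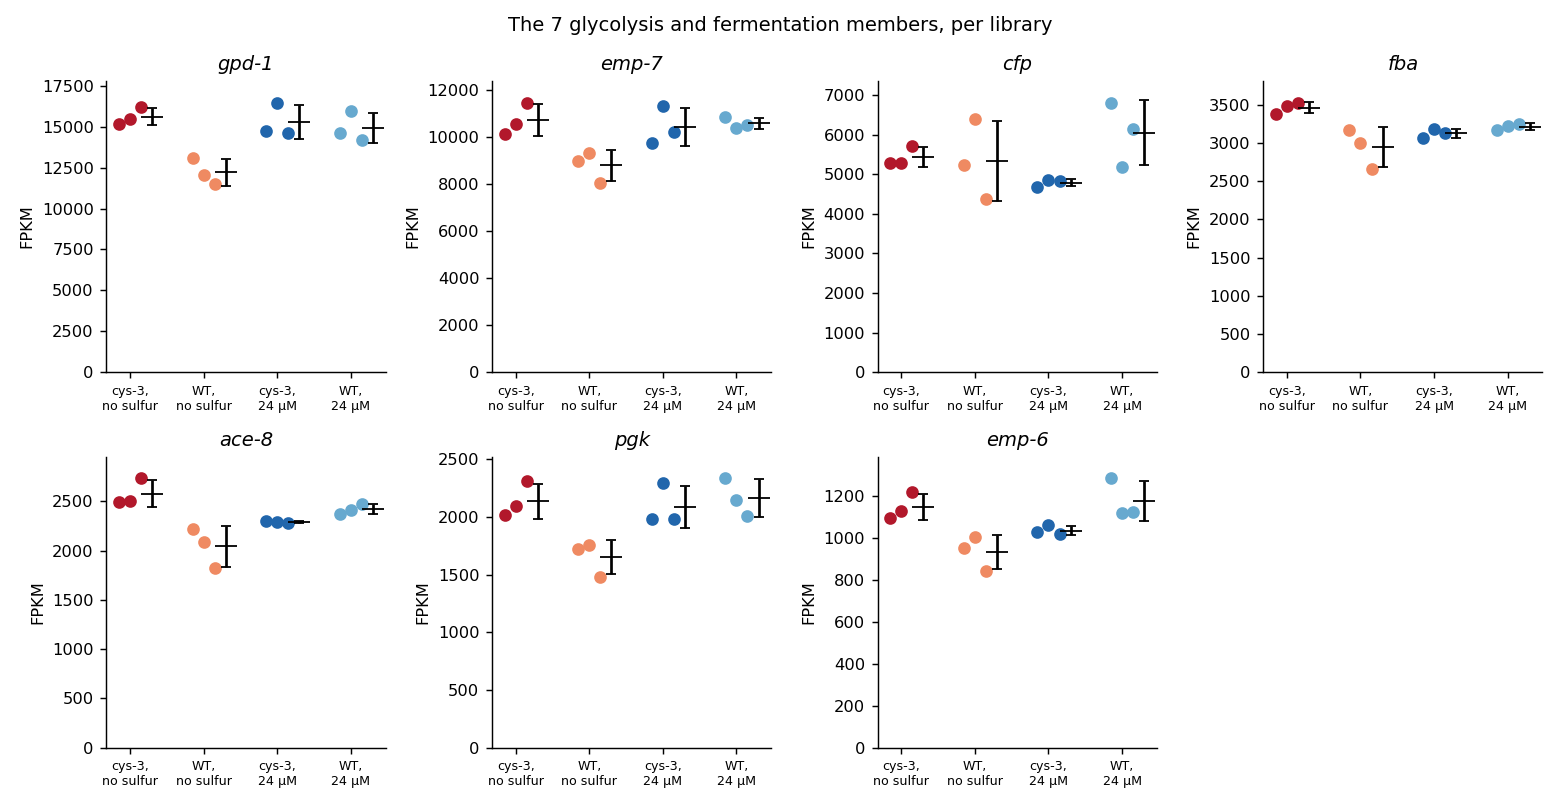
FPKM (y axes, from 0) of the 7 members of glycolysis and fermentation in the 4 groups. Points are single libraries and the bars beside them are mean and SD (n = 3). Starved wild-type cells have the lowest mean for gpd-1, emp-7, fba, ace-8, pgk and emp-6, and 24 μM mutant cells have it for cfp.

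In cys-3 mutant cells, no member passed the test for starvation. The counts were 0 of 100 (limma), against 0.417% of tested genes, 0.318% higher and 0.0993% lower, and 0 past 2-fold, against 0.0199%. In total, 18 members had an unadjusted p under 0.05, against 851 of 5035 tested genes. The median log2 fold change over the members was −0.13, against −0.01 over all tested genes, and 77 of the 100 were negative. Starved and 24 μM cultures did not overlap for 6 members that were higher, against 12.7% of tested genes, and for 19 that were lower, against 16.4%. The smallest adjusted p was that of NCU16673, with 1919, 1821 and 1841 FPKM in starved mutant cells, against 1286, 1371 and 1426 FPKM in 24 μM mutant cells (log2 fold change 0.45 ± 0.12, adjusted p = 0.102), and it was the 1 member past the threshold in the fit to the groups compared alone and with weights per library. Under quantile normalization the 1 member past it was fba (0.30, adjusted p = 0.0458).

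Glycolysis and mitochondrial energy members had opposite signs in the strains, while ribosomal proteins, translation factors and, by median, histones had the same sign, and no group was tested. All 7 glycolysis and fermentation members had positive values in the mutant (median 0.15) and negative values in wild type (median −0.27). All 8 ribosomal proteins were negative in both strains, with medians of −0.19 in the mutant and −0.08 in wild type, and none passed. crp-7, the most abundant of them, averaged 2566 ± 177 FPKM in starved and 2915 ± 155 FPKM in 24 μM mutant cells. The 3 mitochondrial energy genes were negative in the mutant (median −0.15) and positive in wild type (median 0.10), again without a call. Translation factors were negative in both strains (medians −0.10 in the mutant and −0.09 in wild type), and histones had medians of 0.04 in the mutant and 0.20 in wild type, the histone H3 gene hH3 averaging 2210.3 ± 28.3 FPKM in starved and 2111 ± 90.5 FPKM in 24 μM mutant cells. Across the 100 members, 57 were negative in both strains, 5 positive in both and 38 opposite in sign, with a Pearson r of −0.13 between the log2 fold changes. These values come from separate libraries, are across genes, which are not independent replicates, and carry no test.

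**Figure D4:**
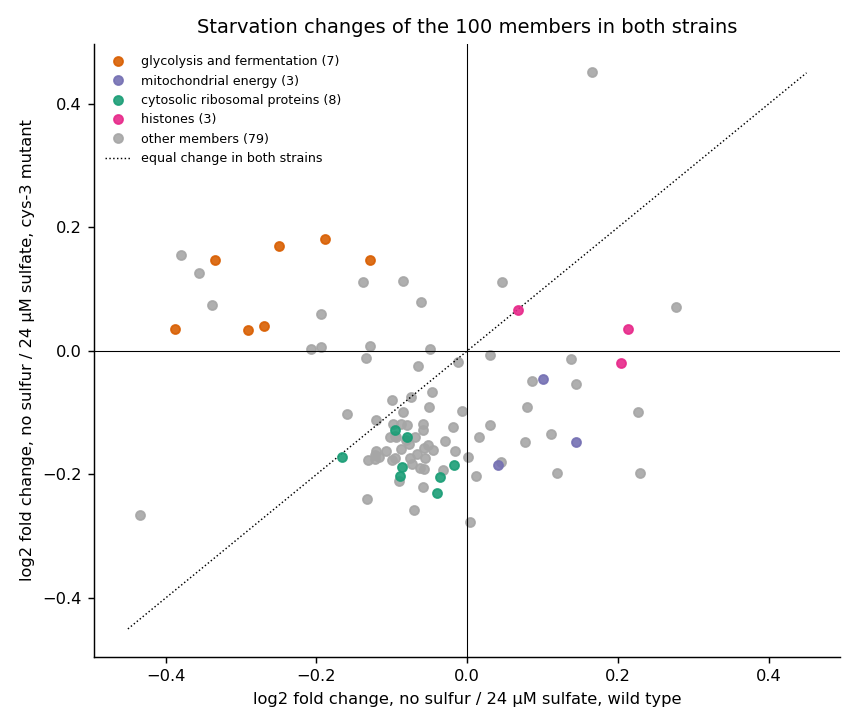
Log2 fold change of FPKM + 1 for sulfur starvation in the cys-3 mutant (y axis) against that in wild type (x axis), 1 point per member, with 4 role lists in color and the other members in grey. The 7 glycolysis and fermentation members lie at the upper left, negative in wild type and positive in the mutant, and the 8 ribosomal proteins lie at the lower left.

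The interaction tested the difference in starvation response between the strains gene by gene, and no list as a whole. The starvation response of 6 members was more positive in the mutant and that of 2 more negative (limma, adjusted p under 0.05), against 13.9% of tested genes in either direction, 6.16% higher and 7.71% lower. No member passed a 2-fold difference, which 3.18% of tested genes did. Glycolysis supplied 4 of the 6: emp-6 (interaction 0.48 ± 0.11, adjusted p = 0.0157), ace-8 (0.42 ± 0.10, adjusted p = 0.0195), pgk (0.42 ± 0.13, adjusted p = 0.0478) and gpd-1 (0.32 ± 0.10, adjusted p = 0.0469), all from limma. The remaining 3 of the list were positive, with fba at 0.28 (adjusted p = 0.0690), emp-7 at 0.31 (adjusted p = 0.0711) and cfp at 0.37 (adjusted p = 0.190). The 3 mitochondrial energy members had interactions of −0.29 to −0.15, and none passed (lowest adjusted p = 0.103, limma). Mean levels of emp-6 were 1146 ± 63.4 FPKM in starved and 1033 ± 22.4 FPKM in 24 μM mutant cells, and 932 ± 82.6 FPKM in starved and 1174 ± 94.5 FPKM in 24 μM wild-type cells. NCU05404 (0.48 ± 0.12, adjusted p = 0.0162) and NCU04314 (0.54 ± 0.16, adjusted p = 0.0444) were the others that were more positive.

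The 2 members with a more negative response in the mutant were por (−0.32 ± 0.10, adjusted p = 0.0469) and hex-1 (−0.32 ± 0.09, adjusted p = 0.0397, limma). hex-1 encodes the major protein of the Woronin body, the organelle that plugs septal pores of a wounded hypha. It had 3124, 2959 and 2949 FPKM in starved and 3517, 3366 and 3476 FPKM in 24 μM mutant cells, against 3325, 3006 and 3341 FPKM in starved and 2759.6, 3057 and 3087 FPKM in 24 μM wild-type cells. The mutant groups did not overlap and the wild-type groups did. Only the interactions of emp-6 (highest adjusted p 0.0467) and NCU05404 (0.0467) passed without every single library in turn, and that of ace-8 failed only without starved mutant replicate 3 (0.0540). The other 5 failed without any 1 of 9 libraries, or 10 for por, with highest adjusted p values of 0.132 for gpd-1, 0.125 for pgk, 0.110 for hex-1, all without starved wild-type replicate 3, and 0.109 for NCU04314 and 0.117 for por without starved mutant replicate 3, and the count was 2 to 8 over the 12 omissions. Under quantile normalization gpd-1 (0.06, adjusted p = 0.591), pgk (0.40, adjusted p = 0.138) and hex-1 (−0.24, adjusted p = 0.0704) did not pass. For gpd-1, the most abundant gene in 11 libraries, that setting could not test the difference.

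**Figure D5:**
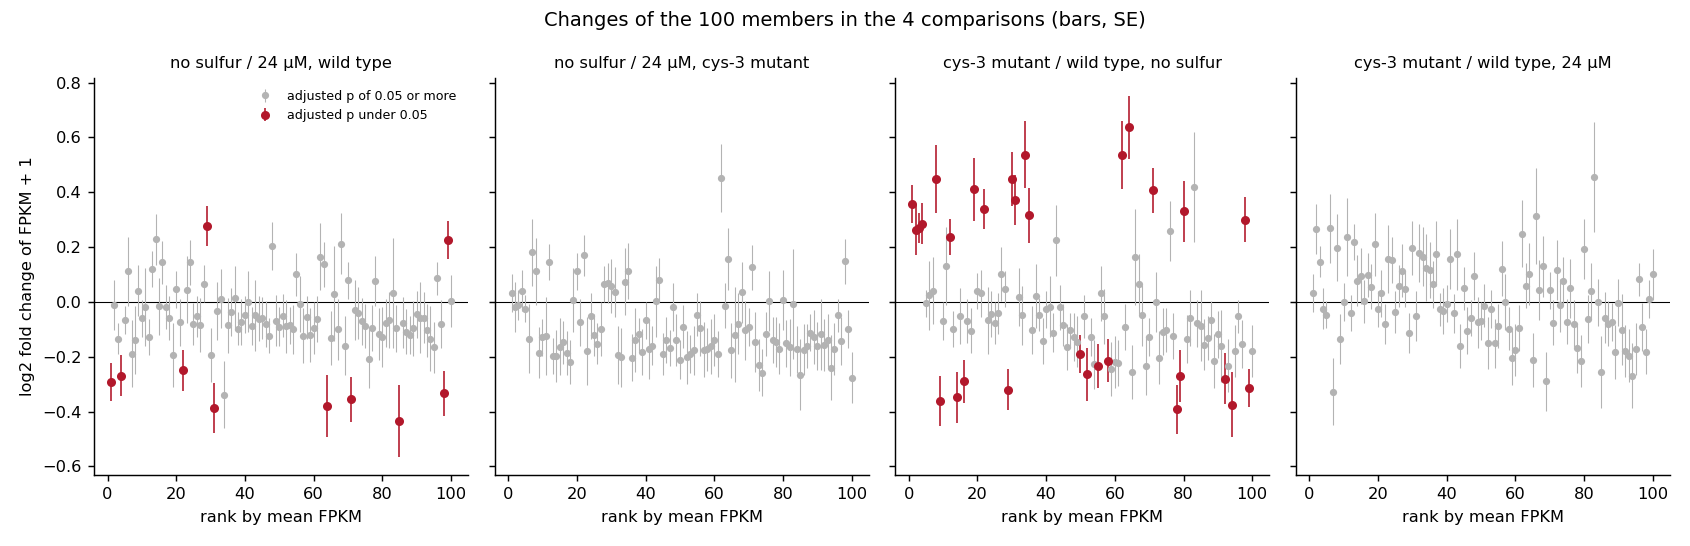
Log2 fold change of FPKM + 1 (y axis) of the 100 members against their rank by mean FPKM (x axis) in the 4 comparisons. Bars are SE and red points have an adjusted p under 0.05 (limma). There are 10 such points for starvation in wild type, 30 for mutant against wild type in starvation and 0 in the other 2 comparisons.

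Between the strains under starvation, 17 members were higher and 13 lower in the mutant (limma, adjusted p under 0.05), against 37.8% of tested genes in either direction, 20.7% higher and 17.1% lower. No member reached 2-fold, which 3.65% of tested genes did. The median log2 fold change was −0.07 over the members and −0.01 over all tested genes, and the ratios of group means ran from 0.760 to 1.56. Cultures did not overlap for 18 members that were higher, against 28.5% of tested genes, and for 29 that were lower, against 26.7%. Of the 10 most abundant members, 5 were higher and 1 lower, and of ranks 11 to 100, 12 were higher and 12 lower.

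Glycolysis stood on the higher side. In starved mutant cells 6 of the 7 members of the list were higher than in starved wild-type cells, all without overlap, and cfp did not pass (0.04, adjusted p = 0.813). gpd-1 had a log2 fold change of 0.36 ± 0.07 (adjusted p = 0.00209, limma) and ace-8 0.34 ± 0.07 (adjusted p = 0.00398, limma), from 2489, 2508 and 2734 FPKM in starved mutant and 2224, 2084 and 1821 FPKM in starved wild-type cells. pgk (0.37), emp-6 (0.30), emp-7 (0.29) and fba (0.24) had adjusted p values of 0.00780, 0.0125, 0.0104 and 0.0145. Both thiamine genes were higher too, NCU06110 with 12571, 13613 and 13314 FPKM in starved mutant and 11275, 10618 and 10881 FPKM in starved wild-type cells (0.27 ± 0.06, adjusted p = 0.00299, limma) and nmt-1 by 0.26 ± 0.09 (adjusted p = 0.0403). Under quantile normalization, gpd-1 (0.06, adjusted p = 0.310), nmt-1 (−0.04, adjusted p = 0.714), NCU06110 (−0.02, adjusted p = 0.637), emp-7 (0.11, adjusted p = 0.238) and pgk (0.30, adjusted p = 0.0676) did not pass. That setting could not test gpd-1, the most abundant gene in 11 libraries. nmt-1, NCU06110 and emp-7, next in rank, could move only as far as their order in a library changed.

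The largest differences among members belonged to 3 genes known only by locus tag. NCU04314 had 1517, 1473 and 1840.4 FPKM in starved mutant cells, against 1163, 928 and 1014 FPKM in starved wild-type cells (log2 fold change 0.64 ± 0.11, adjusted p = 0.00122, limma). NCU05498, annotated as a hypothetical protein, had 2075, 2132 and 2312 FPKM, against 1622, 1346 and 1530.0 FPKM (0.54 ± 0.12, adjusted p = 0.00527, limma). NCU16673 had 1919, 1821 and 1841 FPKM, against 1485, 1076 and 1322 FPKM (0.54 ± 0.12, adjusted p = 0.00544, limma). None of the 3 overlapped. They were followed by ccg-15, a clock-controlled gene also named acw-1, with 2189, 2267 and 2365 FPKM in starved mutant and 1773, 1508 and 1726 FPKM in starved wild-type cells (0.45 ± 0.10, adjusted p = 0.00424, limma), and by cmt with 6182, 5722 and 6038 FPKM, against 5117, 3943 and 4174 FPKM (0.45 ± 0.12, adjusted p = 0.0140, limma). NCU03600 (0.41), NCU05404 (0.41), NCU06402 (0.32) and cpc-1 (0.33), the bZIP activator of amino acid synthesis genes, were also higher.

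The members that were lower in starved mutant cells included all 3 mitochondrial energy genes. aac had 3316, 3419 and 3183 FPKM in starved mutant cells, against 4539, 4082 and 4132 FPKM in starved wild-type cells (log2 fold change −0.36 ± 0.09, adjusted p = 0.00956, limma). oli, subunit 9 of the ATP synthase, had 2681, 2684 and 2482 FPKM, against 3467, 2961 and 3181 FPKM (−0.29 ± 0.08, adjusted p = 0.0125, limma), and atp-2, its catalytic beta subunit, averaged 1345 ± 47.9 FPKM, against 1582 ± 44.1 FPKM (−0.23 ± 0.08, adjusted p = 0.0361, limma). No starved mutant culture overlapped with a starved wild-type culture for these 3 genes. Of all 39 tested genes of that list, 13 were lower and 0 higher, with a median of −0.15, and por, in no list, was lower too (log2 fold change −0.31, adjusted p = 0.00437).

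Among the members, hsp70-1 had the lowest log2 fold change of this comparison, −0.39 ± 0.09 (adjusted p = 0.00566, limma), with 1038, 997 and 1053 FPKM in starved mutant and 1242, 1460.3 and 1359 FPKM in starved wild-type cells. NCU08500 had 872, 963 and 826 FPKM, against 1099, 1310.0 and 1052 FPKM (−0.38 ± 0.12, adjusted p = 0.0262, limma). ccg-16 had 2457, 2688 and 2887 FPKM, against 3127, 3314 and 3794 FPKM (−0.35 ± 0.09, adjusted p = 0.0120, limma). These 3 genes did not overlap between the strains, nor did acw-9, with 1965, 1868 and 1953 FPKM in starved mutant and 2186, 2648 and 2409 FPKM in starved wild-type cells (−0.32 ± 0.07, adjusted p = 0.00531, limma). Of the 8 ribosomal proteins all were negative, with a median of −0.17, and 1 passed the test, po (−0.26, adjusted p = 0.0465). cpc-2, a RACK1-like protein of the ribosome, was lower as well (−0.27, adjusted p = 0.0392), as were NCU03150 (−0.28), NCU00413 (−0.21) and NCU07829 (−0.19).

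The 6 clock-controlled and cell wall members went both ways: gpd-1, cmt and ccg-15 were higher, ccg-16 and acw-9 lower, and ccg-6 did not pass (0.04, adjusted p = 0.672). Over all 26 tested genes of that list, 14 were higher and 3 lower. The summed level of the conidiation markers, as given above, was higher in every mutant culture than in every wild-type culture. No single marker separated the strains in both media. Among starved cultures con-8 and fl did not overlap. With 24 μM sulfate con-8 reached 7.78 FPKM in wild type, against 7.06 FPKM in mutant replicate 1. There fl reached 15.7 FPKM in wild type, against 14.3 FPKM in mutant replicate 3. The part of these markers in the differences was not tested. In this comparison 13 of the 30 calls held without any 1 library, among them those of NCU04314, NCU05498, NCU16673, ccg-15, gpd-1, aac, acw-9, hsp70-1 and por, and the count fell to 19, 18, 19 and 15 without starved wild-type replicates 2 and 3 and starved mutant replicates 1 and 3. cmt failed without starved wild-type replicate 2 or 3 (highest adjusted p 0.0570), emp-7, fba and emp-6 without starved wild-type replicate 3 or starved mutant replicate 3 (0.0537, 0.0689 and 0.0590), ccg-16 without starved wild-type replicate 3 or starved mutant replicate 1 (0.0578), oli without starved mutant replicate 3 (0.0549), NCU08500 without starved wild-type replicate 2 or starved mutant replicate 1 or 3 (0.103), atp-2 without any 1 of the 6 starved cultures (0.118), and nmt-1 without any 1 of 7 libraries (0.145). The calls of NCU03600, NCU06402, cpc-1, NCU03150, cpc-2, po, NCU00413 and NCU07829 each failed without 2 to 9 single libraries, with highest adjusted p values of 0.0644 to 0.164.

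With 24 μM sulfate, no member passed the test between the strains. The counts were 0 higher and 0 lower of 100 (limma), against 0.238% of tested genes, 0.0993% higher and 0.139% lower, and 0 past 2-fold, against 0.159%. In total, 9 members had an unadjusted p under 0.05, against 829 tested genes. The median log2 fold change over the members was −0.00, and cultures did not overlap for 3 members that were higher and 4 that were lower in the mutant, against 7.45% of tested genes on each side. Glycolysis and fermentation had a median of −0.05 with 6 of 7 negative, and the ribosomal proteins −0.07 with 6 of 8 negative. hex-1 came closest, with 3517, 3366 and 3476 FPKM in 24 μM mutant and 2759.6, 3057 and 3087 FPKM in 24 μM wild-type cells (0.22 ± 0.07, adjusted p = 0.232, limma). Without 24 μM wild-type replicate 2, 5 members were higher and 10 lower, against 14.0% of tested genes in either direction, and with weights per library 12 were higher and 16 lower, against 29.0%. Over the members, the log2 fold changes between the strains in starvation and in 24 μM sulfate, from separate libraries, had a Pearson r of 0.54 across genes, with 24 positive in both, 45 negative in both and 31 opposite.

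Of the 100 genes that followed the members in rank, 6 were higher and 13 lower in starved than in 24 μM wild-type cells, against 11.1% and 12.0% of tested genes. In mutant against wild-type starved cells 29 were higher and 13 lower, against 20.7% and 17.1%. In the interaction 9 were more positive and 1 more negative, against 6.16% and 7.71%. The sulfur and methionine list, with 15 tested genes and no member among the 100, had 7 higher and 1 lower in starved wild-type cells. In starved mutant against starved wild-type cells it had 2 higher and 10 lower. For both comparisons the shares of all tested genes are those just given.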

How the data were processed

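Mycelial poly(A) RNA was sequenced as unstranded single-end reads. The authors aligned reads to N. crassa genome version 12 with HISAT2 (2.1.0 in the submitters' processing notes, which also name Cuffnorm 2.2.1) and calculated FPKM per gene and library with Cufflinks 2.2.1; the deposited FPKM tables were used, without counts, so p-values measure spread between the cultures, 3 per group. Depth per library is known only as the megareads implied by the deposited intervals.

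Testing was limited to the 5035 genes whose mean reached 10 FPKM in any group and that had no failed status. log2(FPKM + 1) was fitted with limma 3.58.1 in R 4.3.3, with 1 mean per group over all 12 libraries, a mean-variance trend and Benjamini-Hochberg adjustment over all tested genes; a gene passed at an adjusted p under 0.05, and 2-fold refers to group means. Fold changes are on the log2(FPKM + 1) scale. Tables and plots were made with Python 3.11.15, pandas 2.3.3, numpy 2.4.6, scipy 1.17.1 and matplotlib 3.10.9, and the fit was tested on simulated data.

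Members and gene lists were chosen with earlier results of these data known. Genes were named by rule: the 10 highest means, the 5 largest passing changes in each direction of each comparison and of the interaction, the 2 highest means of each list, and ranks 98 to 103. Not every gene under these rules is described. Other members named to complete a list or count were chosen after their values were seen. Lists used RefSeq symbols and synonyms, since the reference carried no product names; 99 members matched. Replicate numbers did not pair the libraries. Alternatives were another pseudocount, no FPKM minimum, 3 scalings, the groups compared alone, a replicate block, no trend and each library left out, with weights per library and a length-weighted share added after seeing the data. No column of other samples was used.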

Additional observations from a re-analysis of the deposited data

Results flagged for a closer look

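The starvation response of 7 members, named for the largest passing changes, differed between the cys-3 mutant and wild type by the interaction test (limma, adjusted over all tested genes). gpd-1 also passed, as given above (0.32, adjusted p = 0.0469, limma), but was not among the 5 largest positive interactions. The interaction was 0.54 for NCU04314 (starvation log2 fold change 0.16 in the mutant and −0.38 in wild type, adjusted p = 0.0444), 0.48 for NCU05404 (0.13 and −0.36, adjusted p = 0.0162) and 0.48 for emp-6 (0.15 and −0.33, adjusted p = 0.0157). It was 0.42 for pgk (0.04 and −0.39, adjusted p = 0.0478) and 0.42 for ace-8 (0.17 and −0.25, adjusted p = 0.0195). It was negative for por at −0.32 (−0.10 and 0.23, adjusted p = 0.0469) and for hex-1 at −0.32 (−0.20 and 0.12, adjusted p = 0.0397). Only the calls of emp-6 and NCU05404 held in all 20 alternatives. Those of por and hex-1 were each lost in 14, that of pgk in 13, of NCU04314 in 12 and of ace-8 in 2.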

How the results depend on the processing

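Of 24 gene results named for the largest passing changes, 11 passed in every alternative and 13 lost the call without at least 1 library. None of these 24 reversed. Outside them, the differences of nmt-1 and NCU06110 between the starved strains reversed sign under quantile normalization (−0.04 and −0.02). Members passing in starved wild-type cells (10) numbered 4 with no FPKM minimum (11.8% of all genes tested in that setting), 4 with only the groups compared (13.2%), 36 with weights per library (43.4%), and 2 to 13 over single omitted libraries (13.5% to 27.2%), split 3 higher and 6 lower under quantile normalization against 2 and 8. In the mutant (0) they numbered 1 under quantile normalization (0.457%), with only the groups compared (1.13%) and with weights (4.23%), and 0 in every omission. Between the starved strains (30) they numbered 18 with no minimum (22.3%) and 15 to 38 over omissions (25.9% to 42.5%). Against 17 higher and 13 lower, they split 17 and 7 at the same upper quartile (38.0%), 17 and 21 with only the groups compared (39.6%), 19 and 22 with weights (53.2%), and 18 and 20 without 24 μM wild-type replicate 2 (42.5%). With 24 μM sulfate (0) they numbered 28 with weights (29.0%) and 0 to 15 over omissions (0.139% to 14.0%). For the interaction (8) they numbered 2 with no minimum (6.44%), 3 with the replicate block (10.3%), 3 without the trend (13.1%), 13 with weights (27.3%) and 2 to 8 over omissions (9.02% to 14.8%), split 6 and 0 at the same upper quartile against 6 and 2. No count past 2-fold moved from 0 over omissions. Replicate numbers did not pair libraries: 2 of 18 same-number pairs correlated above 0.1 and 2 of 12 libraries correlated best with their own number. The members' share in starved mutant, starved wild-type, 24 μM mutant and 24 μM wild-type cells was 41.4%, 40.3%, 42.3% and 42.3% with the 5 genes counted, 22.3%, 21.4%, 22.8% and 22.7% of implied reads, 37.8%, 37.0%, 38.9% and 38.8% without gpd-1, and 37.1%, 35.4%, 37.9% and 37.7% weighted by locus length, and over omissions 40.4% to 40.7%, 38.3% to 39.7%, 41.3% to 41.8% and 41.2% to 41.5%. The causes of these shifts were not tested. Implied reads are imprecise for 26 members, against 152 of all tested genes. In every group the members' share of implied reads was below the share weighted by locus length, and the reason was not tested. The implied megareads are therefore only a rough measure of depth.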
